A study of Mus musculus with 8 samples.

Results

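The genes described here build and control mitosis, the stage at which a cell condenses its copied chromosomes, attaches them to a spindle and divides. They are 48 genes chosen by function, for proliferation and chromosome structure, mitotic cyclins and kinases, the spindle checkpoint, the kinetochore, spindle motors, cytokinesis and the condensin complex. All 48 were found by symbol among the 17631 genes measured, and all are protein-coding. RNA was taken at postnatal day 7.5 from lower first molars, using the apical part in which the root grows. The control group was Runx2fl/fl and the mutant group Gli1-CreERT2;Runx2fl/fl, both of strain C57BL/6 and with 4 libraries each. Animals of both groups carried floxed Runx2 alleles, and the treatment given in the labels for every sample is tamoxifen at postnatal day 3.5, injected into the peritoneum (1.5 mg for each 10 g of animal, 20 mg/ml in corn oil). Cre is driven from the Gli1 locus and is therefore expected only in cells with active hedgehog signalling at the time of induction, and no group carried Cre without floxed alleles. What Cre or the Gli1 insertion does and what loss of Runx2 does cannot be told apart. The comparison asks what changes in the growing root when this bone-forming transcription factor is removed from Gli1-expressing progenitors.

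The values are group means of normalised signal with 1 p-value per gene from the authors' deposited table. They hold no value for a single library, so no spread between libraries, standard error or depth can be given, and whether individual libraries of the groups overlap is unknown. The labels do not say whether each library is 1 animal, and the p-values then measure only the spread among libraries, some of which may be technical. Unless stated otherwise, means, fold sizes and adjusted p-values are those of the authors' deposited table, and log2 ratios are the log2 of its mutant mean over its control mean. Where a pair of means or sums is joined by "and", the mutant comes first, while a rise or fall is given from control to mutant. Runx2 averaged 65.1 in mutant and 105.5 in control molars (adjusted p = 0.0646), and Gli1 fell from 38.8 to 19.9 (adjusted p = 0.0228, from the authors' deposited table). Ddx3y, a gene of the Y chromosome, averaged 25.6 in mutant and 12.9 in control molars (adjusted p = 0.0486, from the authors' deposited table). Whether the groups differed in the sex of the animals, and its part in the differences below, was not tested. Tooth markers were abundant in both groups, with Dspp of odontoblasts at 7360 and 7714 and Amelx of ameloblasts at 112174 and 174946. The deposited means sum to 955256 in the mutant and 1050684 in the control. Making those sums equal would add 0.14 to every log2 ratio, and the values below are given on the authors' scaling, on which the median of all genes lies at 0.00.

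Mitosis begins when CDK1 bound to cyclin A or B is activated, upon which condensin compacts the chromosomes and kinetochores assemble on the centromeres. The NDC80 complex of the kinetochore grips spindle microtubules, while the spindle checkpoint holds back the anaphase-promoting complex until every chromosome is attached. Separase then cuts cohesin, the spindle midzone forms, and the cell is pinched apart by a contractile ring. Most of these genes are transcribed only late in the cell cycle, under the MuvB complex with B-MYB and FOXM1, and are held silent in resting cells by the DREAM complex, which binds the cell cycle homology region (CHR) of their promoters, often near CCAAT boxes bound by NF-Y. In the root apex, dividing cells include the dental papilla, the dental follicle and the epithelial root sheath.

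The promoters show what this set shares at the level of sequence, which the choice by function did not use. A RefSeq promoter window (GRCm38.p6, 250 bases before to 50 after the transcription start) was found for 41 of the 48 genes. A CHR was searched as TTTGAA or TTCGAA and the CCAAT box as CCAAT, each on both strands. Matches of different letters can overlap and were counted separately. A CHR match stood in 32 of the 41 windows (78.0%) and in 1990 of 12057 measured genes with such a window (16.5%). A CCAAT match stood in 28 of 41 (68.3%) and in 5114 of 12057 (42.4%), and both stood in 26 of 41 (63.4%) and in 975 of 12057 (8.09%). Most of the CHR matches lay close to the start. Within 50 bases of it, 29 of 41 genes held one (70.7%), against 4.55% of all measured genes with a window. The E2F letters TTTGGCGC or TTTCGCGC, typical of S phase promoters, stood in 4 of 41 windows (9.76%) and in 1.63% of all. These matches are letters in a window and do not show binding.

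**Figure D1:**
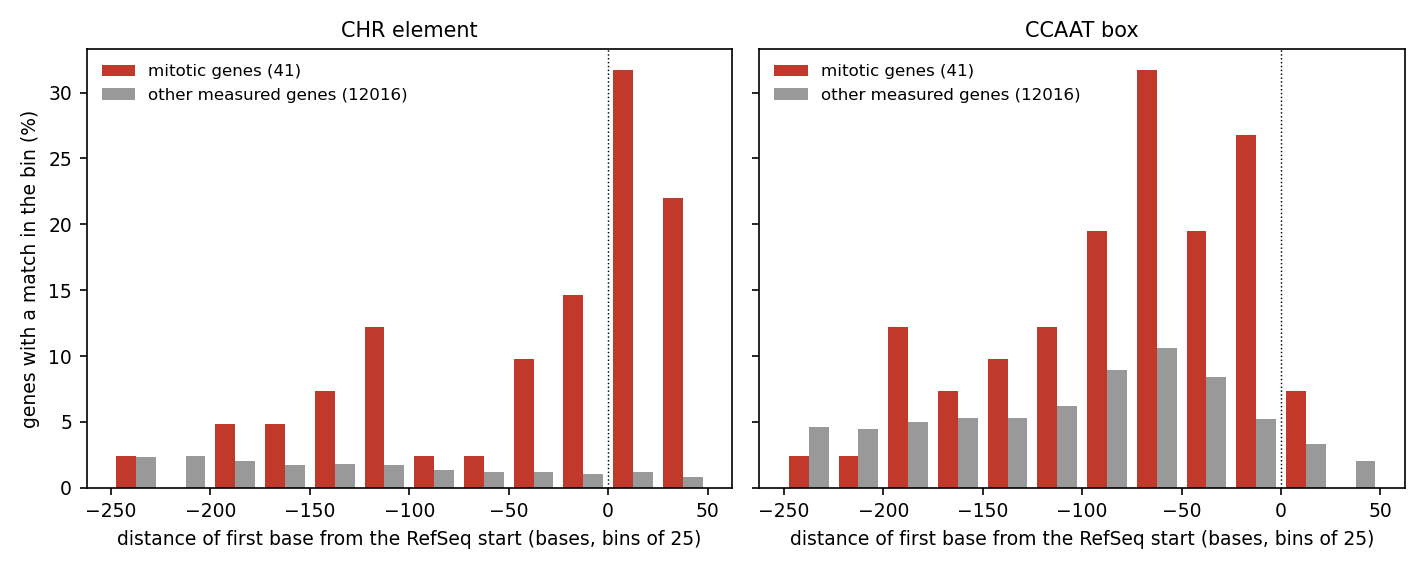
Share of genes (vertical axis, percent) with a match to the CHR (left) or the CCAAT box (right) in each bin of 25 bases, against distance from the RefSeq start (horizontal axis, bases) for 41 mitotic genes (red) and 12016 other measured genes (grey). In the first 25 bases after the start 31.7% of the mitotic genes and 1.22% of the others hold a CHR, and the CCAAT matches of the mitotic genes peak at 31.7% between 75 and 50 bases before it.

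The promoter of Cenpf, the gene of this set with the greatest rise past the threshold, is shown as the example with both elements. It lies on the minus strand at chr1:189688057-189688336 (GRCm38.p6) and runs 5′ to 3′ to 30 bases after the start, with 2 CCAAT boxes and 1 CHR in capitals.
Cenpf promoter: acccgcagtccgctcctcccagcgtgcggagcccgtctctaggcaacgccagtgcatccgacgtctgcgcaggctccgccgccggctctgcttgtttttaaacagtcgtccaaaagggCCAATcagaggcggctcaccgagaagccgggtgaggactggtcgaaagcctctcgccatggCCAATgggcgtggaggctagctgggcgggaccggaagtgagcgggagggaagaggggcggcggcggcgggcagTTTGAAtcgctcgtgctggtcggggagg

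Stretches of 30 bases around the CHR nearest the start are shown for the other called genes that hold one, for the other 2 genes of greatest log2 ratio with one, and for the 4 of lowest log2 ratio with one. Capitals mark the CHR, which reads TTCAAA where the match is on the other strand, and any CCAAT box. The coordinates (GRCm38.p6) are chr7:135716460-135716489 minus for Mki67, chr1:139454767-139454796 plus for Aspm, chr4:52439235-52439264 plus for Smc2, chr2:119047138-119047167 plus for Knl1 and chr2:69206172-69206201 minus for Spc25. For the genes with little difference they are chr7:131560315-131560344 plus for Bub3, chr2:172370521-172370550 minus for Aurka, chr4:118437344-118437373 minus for Cdc20 and chr7:80294434-80294463 plus for Prc1.
Mki67: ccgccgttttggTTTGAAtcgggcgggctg
Aspm: ggaggcgcgataTTTGAAccgagcaaaagc
Smc2: ctcgcgccgaaaTTCAAAggaacagttccg
Knl1: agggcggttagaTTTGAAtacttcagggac
Spc25: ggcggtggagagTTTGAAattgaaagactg
Bub3: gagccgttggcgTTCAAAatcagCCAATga
Aurka: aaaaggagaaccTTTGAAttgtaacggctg
Cdc20: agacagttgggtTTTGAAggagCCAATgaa
Prc1: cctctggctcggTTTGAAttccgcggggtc

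Genes with and without a CHR both had higher means in the mutant. The median log2 ratio was 0.54 over the 32 genes with a match, from -0.03 for Bub3 to 0.84 for Knl1, and 0.37 over the 9 without one, from -0.10 for Pttg1 to 0.69 for Nuf2. For the CCAAT box the medians were 0.51 over 28 genes with and 0.52 over 13 without. The lack of these letters in the windows of the called genes Nuf2 and Nusap1 says nothing about which factors act there. Smc4, also called, was among the genes without a promoter window and could not be searched.

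As a set, the mitotic genes were higher in the mutant molars. By the means of the authors' deposited table, 46 of the 48 had a higher mean in the mutant, where 50.6% of all genes did, and the median log2 ratio was 0.45 (1.36-fold), with quartiles of 0.30 and 0.61. Over all 17631 genes the median was 0.00, with quartiles of -0.16 and 0.18. The differences were small for single genes, from 1.07-fold lower (Pttg1) to 1.79-fold higher (Knl1). At an adjusted p under 0.05, 7 genes rose and none fell, which is 14.6% of the set beside 0.471% of all genes called higher and 0.318% called lower. These were Smc2, Cenpf, Smc4, Nuf2, Aspm, Nusap1 and Mki67. At an unadjusted p under 0.05, 35 of 48 were higher and none lower, where 9.89% of all genes were called higher. A further 14 genes had adjusted p-values between 0.05 and 0.1. Under 0.1, 21 of 48 were thus called higher, beside 2.01% of all genes. Chance of such counts was not tested, because genes that are switched on together in the same cells do not vary independently. In whole tissue, more dividing cells and more mitotic RNA per dividing cell cannot be told apart.

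**Figure D2:**
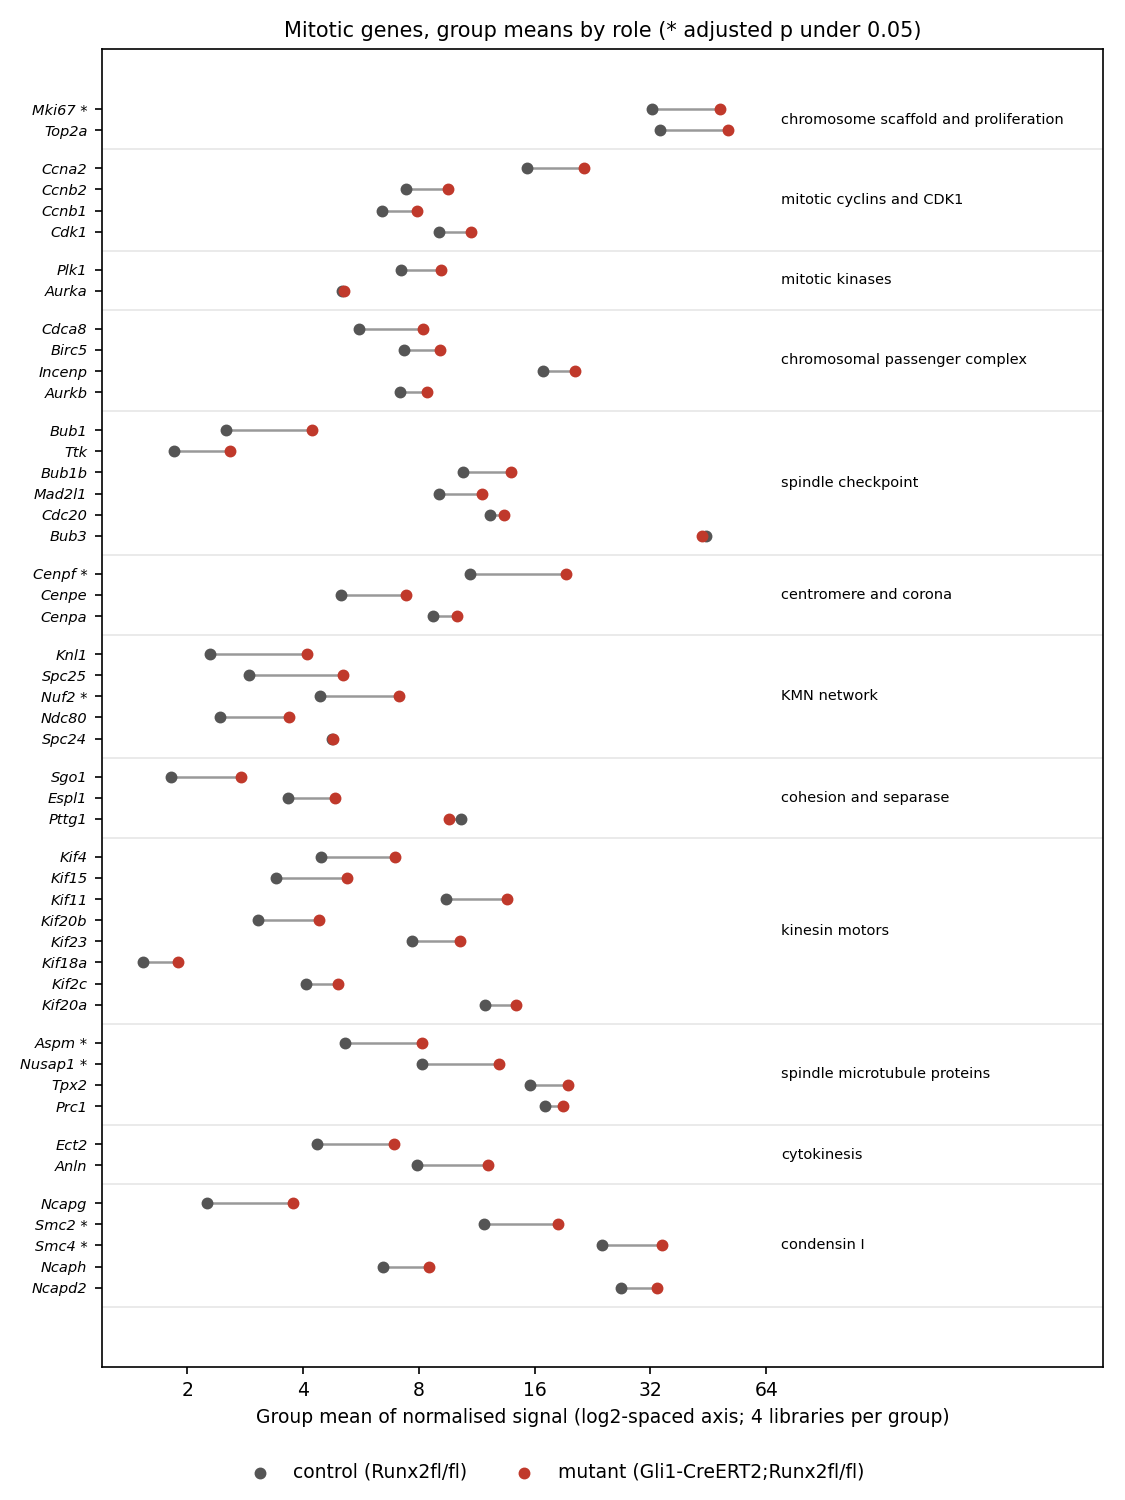
Group means of normalised signal (horizontal axis, log2-spaced) of the 48 mitotic genes by role, with the control in grey and the mutant in red, 1 mean per group over 4 libraries and no error bars because the deposited table gives none. The red point lies to the right in 46 of 48 genes, to the left in Bub3 and Pttg1, and an asterisk marks the 7 genes with an adjusted p under 0.05.

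**Figure D3:**
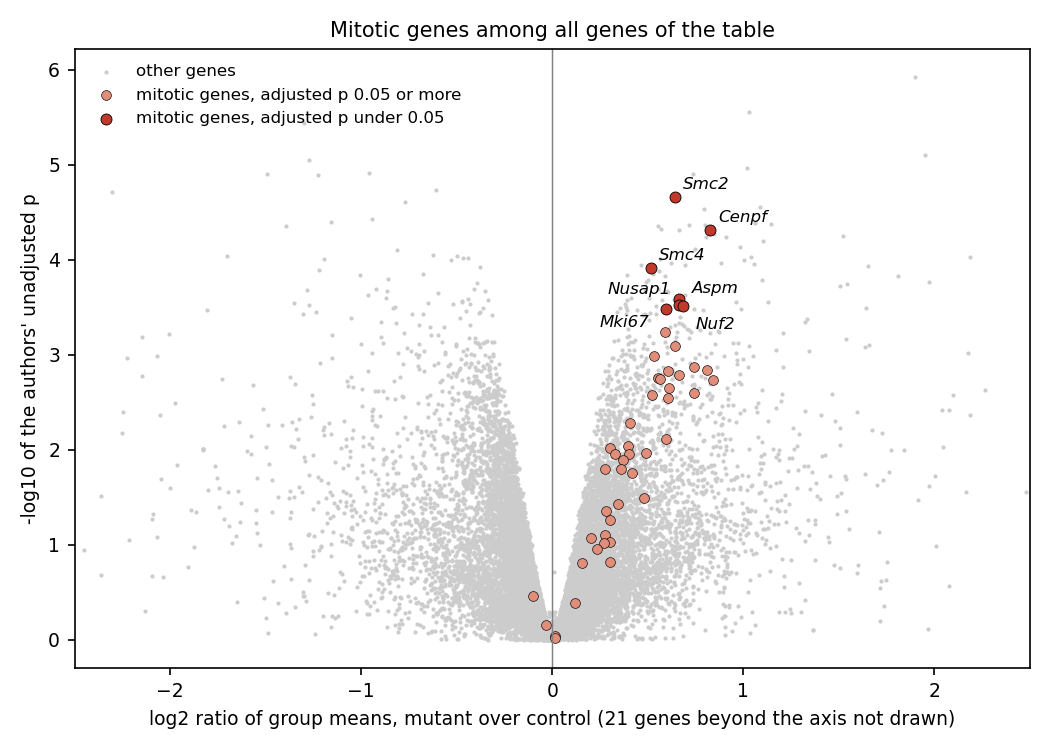
Log2 ratio of group means (horizontal axis) against -log10 of the unadjusted p in the authors' deposited table (vertical axis) for all genes, with the 48 mitotic genes in colour. Of the mitotic genes 46 lie to the right of 0, some of them, such as Aurka and Spc24, near the foot of the plot, and the 7 named ones have adjusted p-values from 0.0296 to 0.0486.

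Mki67 and Top2a mark chromosomes of cycling cells, the first as a coat of mitotic chromosomes and the second as the topoisomerase that untangles sister DNA. Mki67 (chromosome 7, 135689784 to 135716361, minus strand, GRCm38) rose from 32.2 to 48.6 (adjusted p = 0.0486), and Top2a averaged 51.0 in mutant and 33.9 in control molars (adjusted p = 0.0608, per the authors' deposited table), both 1.51-fold. Among the cyclins and their kinase, none of 4 passed although each had a higher mean in the mutant. Ccna2, the cyclin that acts in S phase and early mitosis, averaged 21.4 in mutant and 15.3 in control molars (adjusted p = 0.145, from the authors' deposited table). Ccnb2 stood at 9.52 and 7.41 (adjusted p = 0.167), Ccnb1 at 7.89 and 6.40 (adjusted p = 0.336) and their partner Cdk1 at 10.9 and 9.0 (adjusted p = 0.246, per the authors' deposited table). Log2 ratios of these 4 genes, from 0.28 to 0.49, lay below the 0.59 of Mki67 and of Top2a.

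The mitotic kinases did not pass. Plk1, which drives centrosome maturation and mitotic exit, averaged 9.15 in mutant and 7.20 in control molars (adjusted p = 0.229, from the authors' deposited table). The centrosomal kinase Aurka had nearly equal averages of 5.10 and 5.05 (adjusted p = 0.961, per the authors' deposited table). In the chromosomal passenger complex, which corrects faulty attachments, all 4 genes had higher means in the mutant and none passed. The differences were greatest for borealin, Cdca8, at 8.21 in mutant and 5.60 in control molars (adjusted p = 0.0823, from the authors' deposited table). The scaffold Incenp stood at 20.4 and 16.9 (adjusted p = 0.167), survivin, Birc5, at 9.05 and 7.33 (adjusted p = 0.270), and the kinase Aurkb at 8.41 and 7.14 (adjusted p = 0.361, per the authors' deposited table).

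Spindle checkpoint genes were uneven, with none of 6 past the threshold and log2 ratios from -0.03 to 0.74. The kinase gene Bub1 averaged 4.23 in mutant and 2.53 in control molars, which is 1.67-fold (adjusted p = 0.0762, from the authors' deposited table). Bub1b, which encodes the checkpoint inhibitor BUBR1, stood at 13.8 and 10.4 (adjusted p = 0.112), the inhibitor gene Mad2l1 at 11.7 and 9.05 (adjusted p = 0.155), and the kinase gene Ttk at 2.58 and 1.85 (adjusted p = 0.214, per the authors' deposited table). The other two members were close to equal in the authors' deposited table. Cdc20, the activator that the checkpoint restrains, averaged 13.3 in mutant and 12.2 in control molars (adjusted p = 0.674), and Bub3, whose protein also has roles outside mitosis, 43.5 and 44.5 (adjusted p = 0.856, from the authors' deposited table).

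At the kinetochore, Cenpf (chromosome 1, 189640606 to 189688086, minus strand), a large protein of its outer corona, rose 1.77-fold from 10.9 to 19.3 (adjusted p = 0.0318, per the authors' deposited table). The corona motor gene Cenpe averaged 7.43 in mutant and 5.02 in control molars (adjusted p = 0.0825, from the authors' deposited table). Cenpa, the histone variant that marks the centromere, averaged 10.1 and 8.72 (adjusted p = 0.323, per the authors' deposited table). In the microtubule-binding network, Nuf2 (chromosome 1, 169497934 to 169531464, minus strand) rose 1.61-fold from 4.42 to 7.11 (adjusted p = 0.0484, from the authors' deposited table). The scaffold Knl1, with 4.10 in mutant and 2.29 in control molars, had the highest ratio of the 48 genes but an adjusted p of 0.0829, per the authors' deposited table. Spc25 stood at 5.07 and 2.89 (adjusted p = 0.0774) and Ndc80 at 3.67 and 2.43 (adjusted p = 0.128, from the authors' deposited table). Spc24, which pairs with Spc25 in the same 4-subunit complex, averaged 4.79 in mutant and 4.74 in control molars (adjusted p = 0.983, per the authors' deposited table). The difference between the ratios of Spc24 and Spc25 was not tested.

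Of the genes that guard and release sister cohesion, none passed. The centromeric protector Sgo1 averaged 2.76 in mutant and 1.82 in control molars (adjusted p = 0.0914), and separase, Espl1, 4.84 and 3.66 (adjusted p = 0.146, from the authors' deposited table). Securin, Pttg1, which holds separase inactive, had the lowest ratio of the 48, with 9.59 in mutant and 10.3 in control molars (adjusted p = 0.622, per the authors' deposited table).

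All 8 kinesin motor genes had higher means in the mutant, and none passed. The log2 ratios ran from 0.27 to 0.64. The chromosome-arm motor Kif4 stood at 6.95 and 4.44 (adjusted p = 0.0661), the bipolar spindle motor Kif11 at 13.6 and 9.40 (adjusted p = 0.0698), and Kif15, which can take over spindle separation, at 5.19 and 3.41 (adjusted p = 0.0775, from the authors' deposited table). The cytokinetic motor Kif20b averaged 4.40 and 3.06 (adjusted p = 0.0903), and Kif23, a centralspindlin subunit, 10.2 and 7.67 (adjusted p = 0.174, per the authors' deposited table). Smaller ratios belonged to Kif18a, which dampens chromosome oscillation (1.89 and 1.53), to the midzone motor Kif20a (14.3 and 11.9) and to the microtubule depolymerase Kif2c (4.92 and 4.06), with adjusted p-values of 0.420, 0.340 and 0.313, from the authors' deposited table.

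Among spindle proteins, Aspm (chromosome 1, 139454772 to 139494091, plus strand), which focuses spindle poles, rose 1.59-fold from 5.14 to 8.16, and Nusap1 (chromosome 2, 119618298 to 119651244, plus strand), which bundles microtubules around chromosomes, rose 1.58-fold from 8.14 to 12.9 (adjusted p = 0.0484 for each, per the authors' deposited table). Tpx2, the activator of Aurora A, averaged 19.5 in mutant and 15.5 in control molars (adjusted p = 0.145), and the midzone bundler Prc1 had 19.0 and 17.0 (adjusted p = 0.425, from the authors' deposited table). Of the cytokinesis genes, the contractile ring scaffold Anln stood at 12.1 and 7.91 (adjusted p = 0.0879) and Ect2, which activates RhoA at the midzone, at 6.88 and 4.34 (adjusted p = 0.0808, per the authors' deposited table).

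The 5 genes of condensin I all had unadjusted p-values under 0.05 and higher means in the mutant. The ATPase genes of the complex passed. Smc2 (chromosome 4, 52439243 to 52488260, plus strand) rose 1.56-fold from 11.8 to 18.4 (adjusted p = 0.0296, the lowest of the 48), and Smc4 (chromosome 3, 69004738 to 69034623, plus strand) rose 1.43-fold from 23.96 to 34.3 (adjusted p = 0.0398, from the authors' deposited table). Both serve condensin I and condensin II. The subunits that belong to condensin I did not pass, with Ncapg at 3.76 and 2.25 (adjusted p = 0.0897), Ncaph at 8.50 and 6.45 (adjusted p = 0.136) and Ncapd2 at 33.2 and 26.9 (adjusted p = 0.139, per the authors' deposited table). Of the 3 subunits that belong to condensin II, Ncapg2 averaged 8.55 in mutant and 6.5 in control molars (adjusted p = 0.131), Ncaph2 66.8 and 71.8 (adjusted p = 0.536) and Ncapd3 15.5 and 16.2 (adjusted p = 0.809, from the authors' deposited table). Condensin I acts after the nuclear envelope opens and condensin II already in the nucleus, and the difference between the complexes was not tested.

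**Figure D4:**
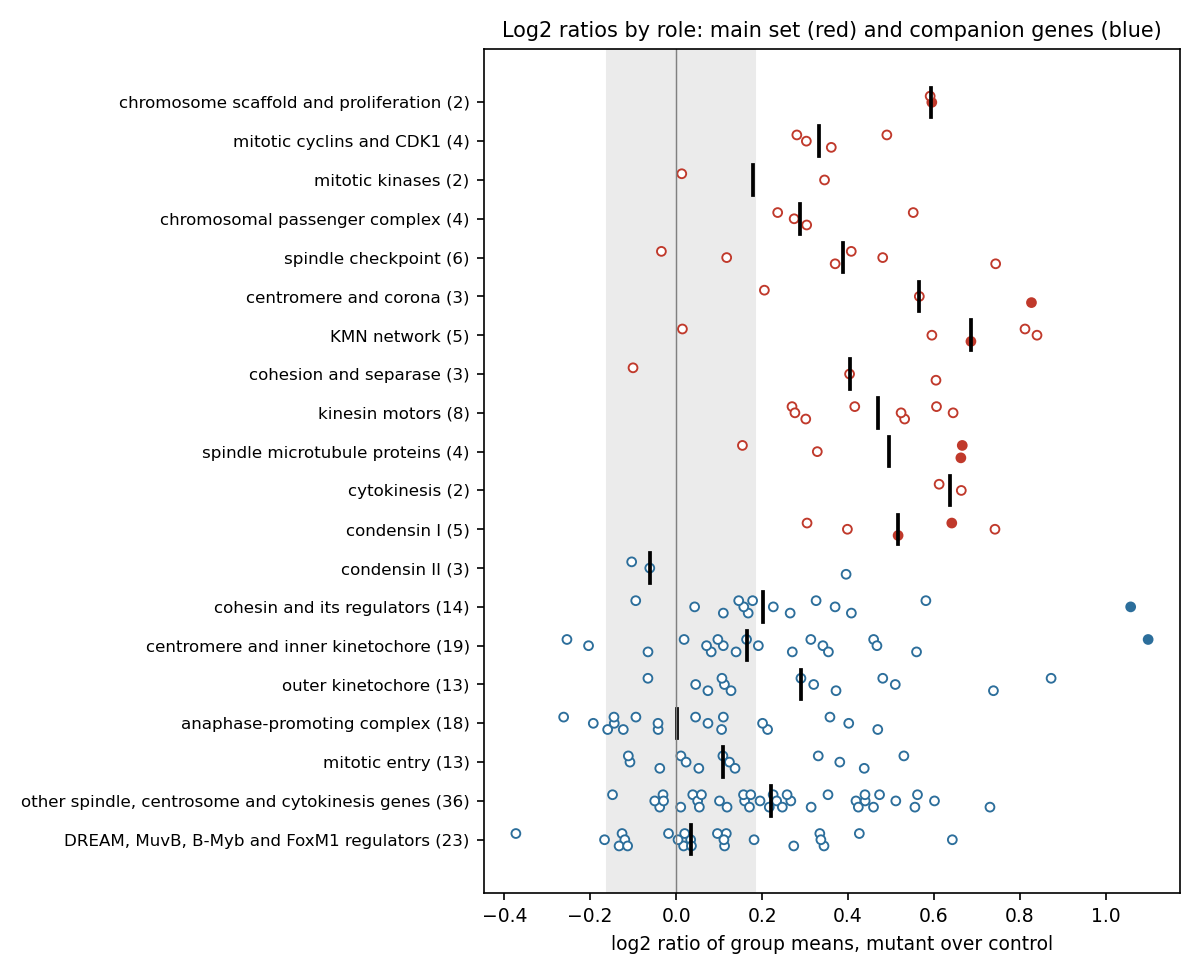
Log2 ratio of group means (horizontal axis) for each of the 48 mitotic genes (red, by role) and 139 companion genes (blue, by list, gene number in brackets), with filled points for an adjusted p under 0.05, black bars at list medians and the grey band spanning the quartiles of all genes, -0.16 to 0.18. Of the 48 genes, 42 lie at or above the upper edge of the band, and list medians run from 0.18 to 0.69 in red and from -0.06 to 0.29 in blue.

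Companion genes of mitosis, 139 in 8 lists, gave smaller differences. Their median log2 ratio was 0.14, and 108 of 139 (77.7%) had higher means in the mutant, beside 50.6% of all genes. At an adjusted p under 0.05, 2 rose and none fell, which is 1.44% of them beside 0.471% of all genes called higher. At an unadjusted p under 0.05, 36 were higher (25.9%) and 2 lower. Of all genes, 9.89% were higher and 9.4% lower at that threshold. The cohesin acetyltransferase gene Esco2 rose 2.08-fold from 1.48 to 3.07 (adjusted p = 0.0392), as 1 of 14 cohesin genes (median 0.20), beside the cohesin regulator Pds5b at 54.6 and 41.2 (adjusted p = 0.0646, per the authors' deposited table). The 19 inner kinetochore genes had a median log2 ratio of 0.16, with Cenpi, a centromere protein gene, at 1.98 and 1.44 (adjusted p = 0.208, from the authors' deposited table).

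None of the 5 lists that follow held a called gene. The 13 outer kinetochore genes had a median log2 ratio of 0.29, with the checkpoint protein gene Zwilch at 2.65 and 1.59 (adjusted p = 0.0882) and the microtubule coupler Ska1 at 1.37 and 0.748 (adjusted p = 0.131, per the authors' deposited table). The 36 other spindle, centrosome and cytokinesis genes had a median of 0.22, with the kinesin gene Kif14 at 2.75 and 1.66 (adjusted p = 0.0808) and Ckap2l at 12.4 and 9.05 (adjusted p = 0.105, from the authors' deposited table). The 13 mitotic entry genes had a median of 0.11, with Cks2, a small CDK-binding protein gene, at 5.89 and 4.35 (adjusted p = 0.102) and the kinase gene Mastl at 4.19 and 3.22 (adjusted p = 0.195, per the authors' deposited table). The 18 genes of the anaphase-promoting complex and its partners had a median of 0.00, with Cdc27 at 39.4 and 30.7 (adjusted p = 0.0774) and the E2 enzyme gene Ube2c at 12.2 and 8.80 (adjusted p = 0.183, from the authors' deposited table). The 23 regulators of late cell cycle transcription, among them the MuvB, B-MYB, FOXM1, E2F and NF-Y genes, had a median of 0.04, with E2f1 at 8.28 and 6.16 (adjusted p = 0.120) and the MuvB subunit gene Lin37 at 7.97 and 10.3 (adjusted p = 0.135, per the authors' deposited table). A CHR match stood in 49 of the 114 companion genes with a promoter window (43.0%), beside 78.0% in the main set and 16.5% of all measured genes.

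Transcript composition moved with the ratios within the set. The 24 genes with GC content at or under the set's median of 45.5% had a median log2 ratio of 0.61 and held 6 of the 7 calls, while the 24 above it had 0.30 and held 1 call, Mki67. The 24 shorter genes (exonic length up to 5298 bases) had a median of 0.34 and the 24 longer ones 0.59. Over the 48 genes, which share the same libraries, the log2 ratio went with GC content at Pearson r = -0.63 and Spearman rho = -0.66, and with log2 exonic length at 0.48 and 0.42, given as descriptions. With the log2 control mean, which is itself part of the ratio, the values were -0.35 and -0.37. The same direction for GC content appeared over all protein-coding genes reaching 1 in either group, whose median fell from 0.19 in the GC-poorest eighth to -0.13 in the GC-richest. Each of the 48 can be set beside the remaining genes of its own GC eighth, and 46 lay above their median, all except Bub3 and Pttg1. In the GC-poorest eighth 16 mitotic genes had a median of 0.61 and the others 0.19, and in the sixth eighth 5 mitotic genes had 0.24 and the others -0.06.

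With the trend on GC content and length over all genes subtracted, the set's median log2 ratio went from 0.45 to 0.36, and 45 of 48 genes were above 0, where 49.8% of all genes were. At an unadjusted p under 0.05, 26 were higher and none lower, where 6.46% of all genes were called higher. None of the 7 kept an adjusted p under 0.05, and the lowest of the 48 was 0.169, for Cdca8. Under this subtraction 0.0854% of all genes were called higher and 0.0399% lower. The log2 ratio went from 0.83 to 0.63 for Cenpf, from 0.69 to 0.51 for Nuf2, from 0.67 to 0.50 for Aspm, from 0.66 to 0.53 for Nusap1, from 0.59 to 0.49 for Mki67, from 0.64 to 0.39 for Smc2 and from 0.52 to 0.21 for Smc4. GC-poor genes moved most, with Ncapg from 0.74 to 0.14, Knl1 from 0.84 to 0.41 and Kif18a from 0.30 to -0.16. GC-rich genes went up, with Plk1 from 0.35 to 0.48 and Espl1 from 0.40 to 0.45. Among the companion lists, the 14 cohesin genes went from a median of 0.20 to -0.02, with 6 above 0 in place of 13. The 13 outer kinetochore genes went from 0.29 to 0.21, with 11 above 0 in place of 12. The subtraction also removes any real change that follows GC content or length, and its correctness for these libraries was not tested.

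**Figure D5:**
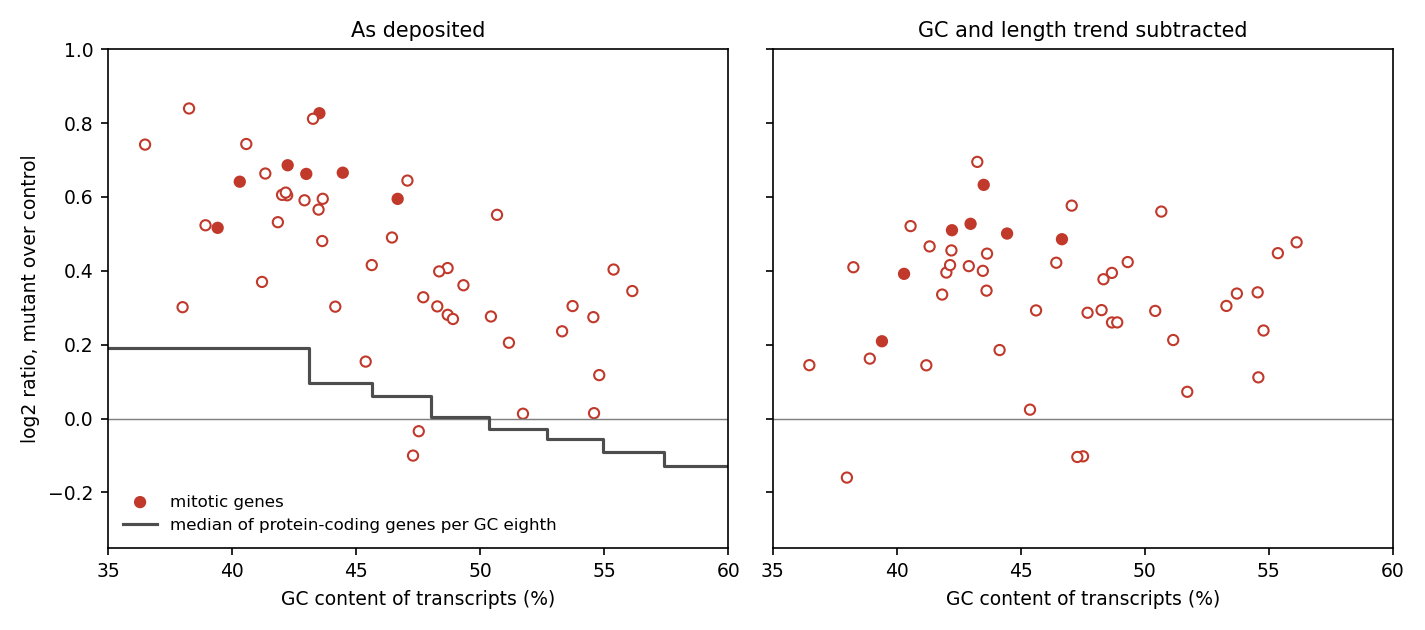
Log2 ratio (vertical axis) against GC content of transcripts (horizontal axis, percent) for the 48 mitotic genes, as deposited (left, with the median per GC eighth of protein-coding genes reaching 1 in either group as a stepped line) and after the trend on GC content and length was subtracted (right), with filled points for the 7 genes called as deposited. On the left 46 genes lie above the line and GC-poor genes lie highest, while on the right r with GC content is -0.02 and 45 of 48 genes are above 0.

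Markers of several cell types moved in the same comparison, and their part in the mitotic differences was not tested. All 6 measured erythroid genes had lower means in the mutant (summed means 319.4 and 719.2), and the globin gene Hba-a1 fell from 223.3 to 92.5 (adjusted p = 0.0484, from the authors' deposited table). All 6 osteoblast genes had lower means (47696 and 49538, mostly Col1a1). Of these, the osteocalcin gene Bglap fell from 2234 to 1252 (adjusted p = 0.0484) and the transcription factor gene Sp7 from 154.8 to 117.7 (adjusted p = 0.0447, per the authors' deposited table). Of 6 smooth muscle and pericyte genes 3 had lower means (380.5 and 386.5), and among them the contractile genes Acta2, which fell from 52.97 to 23.7 (adjusted p = 0.0318), and Tagln, which fell from 30.4 to 15.2 (adjusted p = 0.0417, from the authors' deposited table), passed. Rgs5, the most abundant of that list, averaged 195.1 and 166.3 (adjusted p = 0.362, from the authors' deposited table). Next came Pdgfrb, at 141.7 and 131.8 (adjusted p = 0.680, from the authors' deposited table). Of the contractile genes not called, Myh11 averaged 4.53 and 4.44 (adjusted p = 0.934) and Cnn1 0.270 and 0.594 (adjusted p = 0.158, from the authors' deposited table). The remaining lists held no called gene. Means were lower in the mutant for 5 of 6 ameloblast genes (177014 and 260990), 4 of 5 odontoblast genes (8547 and 8890), 4 of 6 nerve genes (36.8 and 47.5) and 6 of 6 skeletal muscle genes, which were scarce in both groups (3.44 and 6.01). The lowest p of the nerve genes among those lower was that of the myelin gene Mbp, at 8.89 and 13.8 (adjusted p = 0.120, per the authors' deposited table). Means were higher for 5 of 6 macrophage genes (419.3 and 358.2), 5 of 6 endothelial genes (239.1 and 216.3) and 4 of 6 dental epithelium genes (2480 and 2467). No marker was at 0 in either group.

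Exons of 12 of the 48 genes overlap those of another annotated gene, 10 of them on the opposite strand, and the labels do not say whether the counting used strand. The overlap covered the greatest share of exonic length in Kif20a (29.3%, with Cdc23) and Kif4 (15.1%, with Pdzd11). Among the called genes it touched Nusap1, where Oip5 covers 4.24%. Over the 36 genes without an overlap the median log2 ratio was again 0.45, and 6 of them were called.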

How the data were processed

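The data are 1 table of mouse molar RNA-seq, 4 libraries per genotype, read as 2 x 50 nt. Per the submitters' processing notes, STAR 2.6.1d, Partek and build mm10 were used, in roles the notes as held here do not give. No label or header records annotation, counting or normalisation. By the file's headings and values, the deposited group means and totals are normalised signal, the deposited ratio is mutant over control, the deposited fold change is a signed score restating it, and the deposited p-values compare knockout with wild type. The total equals 4 times the sum of both means, the ratio restates the means and the FDR (the adjusted p here) is the Benjamini-Hochberg adjustment for all 17631 genes (relative tolerance 1e-06). A count test could not be run, so calls are the authors' adjusted p under 0.05, the route planned for such a table. No test of gene lists was made.

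Members and lists were chosen with earlier results of these data known. The naming rule took all 48 members, called companions and otherwise the 2 of lowest p per companion list, Runx2 and Gli1. A called companion gene that this rule takes is not reported here by name, though it is counted. The plan for markers, up to 2 genes of highest control mean per list, was not followed in full. Markers named are called ones, the 1 or 2 most abundant of a list (Dspp, Amelx, Col1a1, Rgs5, Pdgfrb), and Mbp, Myh11 and Cnn1, chosen after their values were seen. So was Ddx3y, which is in no list. Of the marker lists 1 gene, Epb42, had no row. Symbols were matched to GENCODE M21 (GRCm38, the assembly mm10 names) for 17562 genes (99.6%) for coordinates, exonic length and GC content. Signed z from the authors' p, and the log2 ratio, were each regressed by mgcv 1.9.3 (R 4.3.3) on smooth functions of GC content and of log2 length, which took 22.2% and 13.3% of the variance, and the trend was subtracted. This was run on simulated data with a planted trend, in which genes were independent and the shifted ones drawn at random. A set of genes that change together was not simulated. Promoters came from RefSeq (GRCm38.p6). Tables were handled in Python 3.11.15 with pandas 2.3.3.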

Additional observations from a re-analysis of the deposited data

How the results depend on the processing

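The count of 7 called genes became 21 at an adjusted p under 0.1, where 641 of all 17631 genes were called in either direction. It became 0 with the GC content and length trend subtracted, where 26 of 48 still had an unadjusted p under 0.05. With that subtraction 22 of 17562 genes were called in all. Over genes reaching 1 in either group the count was 8, with Top2a added (0.0497 after adjusting the p-values of the authors over these genes). Of all 14168 such genes 168 were called. Over genes at or above the median of all genes (11.8), 17 of the 48 were tested and 6 called, of which 5 were among the 7. Of all 8816 such genes 141 were called. The 2 called companion genes became 7 of 139, all higher, at an adjusted p under 0.1, where 2.01% of all genes were called higher. They became 0 with the trend subtracted. Over genes at or above the median, 61 of the 139 were tested and 1 was called, Pds5b, which is neither of the 2. The alternatives for the count of companion genes were chosen after seeing the data, as was leaving out overlapping genes. The set's median log2 ratio of 0.45 was 0.37 with a pseudocount of 1, 0.44 centred on the median of all genes, 0.59 with equal sums of group means, on which all 48 genes were higher, and 0.36 with the trend subtracted. The companion median of 0.14 was 0.12, 0.14, 0.28 and 0.074 in the same order. Equal sums add the same 0.14 to every gene, so the median of all genes rises alike. The distance of the set from that median stays as it was, and the share of all genes above 0 on that scale was not computed. With the trend subtracted, Kif18a, not called, turned to a lower level in the mutant (0.882 for the p-value of the authors so recomputed and adjusted). No paired analysis was possible because the table holds no values per library, and for the same reason no library could be left out. Depth per library is unknown, so no limit from it can be given.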
